A study of Arabidopsis thaliana with 96 samples.

Results

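Small RNA reads over the regulatory DNA of AGAMOUS were compared between flowers of the mutants suvh1-2, hdp1-1, hdp2-1 and kan1-11 and of the wild-type accession Col, in plants whose labels name no transgene cassette. The 15 libraries were chosen by their titles as all set C libraries of these 5 hosts of flower class Wt, with 3 replicates per host, out of 36 libraries in set C and 96 in the series. The series addresses an element said to protect regulatory DNA from siRNA-driven methylation and silencing in Arabidopsis thaliana, and most of its lines carry cassettes with AG sequences. The 5 hosts were taken as untransformed, and so as the small RNA level of each genetic background, because their labels name no cassette. Whether any of these libraries held cassette sequence was not tested. Every library was made from young flowers of one host genotype, and the genotype is the only labelled difference between the groups. Plants had 16 h of light and 8 h of dark, and each replicate pooled 5 to 10 lines of the same flower phenotype, per the labels' protocols. The labels do not describe the lesion of any allele, and no gene besides AG was counted, so neither the mutated genes nor floral marker genes could be checked.

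RNA-directed DNA methylation (RdDM) uses small interfering RNAs to direct methylation to DNA of the same sequence, and it can silence a promoter or enhancer in plants. AG encodes a MADS-box transcription factor that specifies stamens and carpels, and much of its control lies in its second intron, where the floral regulators LEAFY and WUSCHEL bind. SUVH1 is a histone methyltransferase homolog that binds methylated DNA and favours expression of methylated promoters. HDP1 and HDP2 derive from harbinger transposon proteins and act with a histone acetyltransferase complex that counters silencing. KAN1 belongs to the KANADI transcription factors, which set organ polarity.

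The deposited counts cover the AG enhancer (AGe) and a region headed AG promoter or M2, called AGp here because M2 is not explained. In TAIR10 coordinates AGe lies at chr4:10384147-10387145 and is 2999 bp long. It equals intron 2 in 1 of the 4 AG transcripts annotated by RefSeq on TAIR10.1. In the other 3 transcripts 97.0% of it is intronic (94.5% of it in intron 2) and 90 bases belong to an exon. AGp lies at chr4:10380701-10382800, is 2100 bp long, overlaps no annotated gene and ends 56 bp before the AG start. Both regions are AT-rich, with 28.6% GC in each, and most of their cytosines are in the CHH context (H stands for A, C or T), in which methylation by RdDM is typical. CHH cytosines made up 84.5% of the 857 cytosines of AGe and 86.7% of the 600 of AGp, over both strands.

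**Figure D1:**
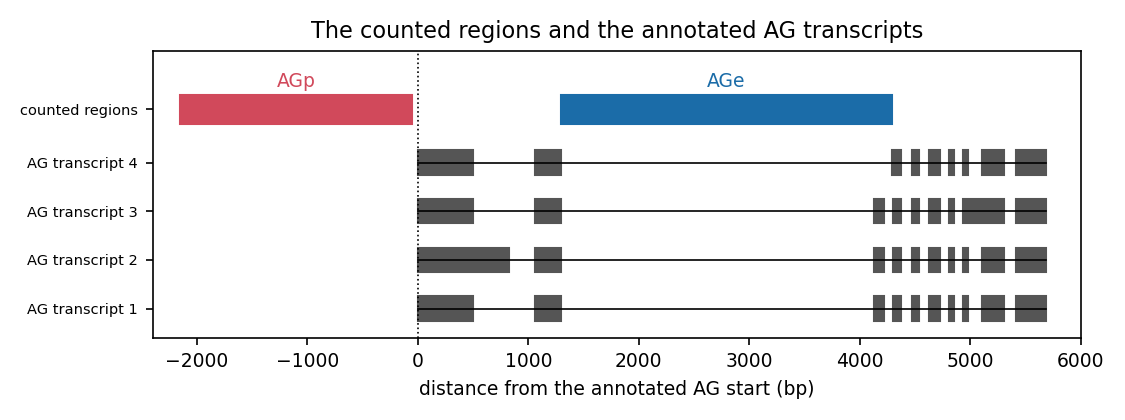
Map of the counted regions and of the exons (boxes) of the 4 annotated AG transcripts, with the distance from the annotated AG start in bp on the x axis. AGp ends 56 bp before the start, and AGe fills the long intron, reaching over 90 exonic bases in 3 of the transcripts.

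A stretch of each region is shown on the plus strand, which is the strand of AG, as RefSeq gives it for TAIR10.1. The first is the end of AGp nearest to AG (chr4:10382501-10382800). The second (chr4:10386398-10386697) was picked from AGe, ahead of its exonic bases, as a window with the most matches to the core letters of LEAFY sites. Capitals mark matches to CCANTG on either strand, with overlapping matches joined.
AGp: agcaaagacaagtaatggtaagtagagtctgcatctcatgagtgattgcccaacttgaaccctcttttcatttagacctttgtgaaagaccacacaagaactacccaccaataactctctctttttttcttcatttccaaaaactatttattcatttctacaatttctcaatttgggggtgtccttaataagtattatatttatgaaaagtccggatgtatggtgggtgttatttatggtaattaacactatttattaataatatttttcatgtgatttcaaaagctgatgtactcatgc
AGe: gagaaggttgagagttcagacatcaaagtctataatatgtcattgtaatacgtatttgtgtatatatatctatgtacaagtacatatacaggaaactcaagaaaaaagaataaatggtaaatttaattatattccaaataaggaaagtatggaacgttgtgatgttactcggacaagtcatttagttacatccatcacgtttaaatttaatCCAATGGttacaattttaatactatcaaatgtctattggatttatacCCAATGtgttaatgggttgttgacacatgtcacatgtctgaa
The whole of AGe held 5 such stretches and AGp 1. The AGe window, picked for its matches, held 2 and the AGp window, picked by position, none, so the windows are not a like comparison. On chromosome 4, 32.1% of 61933 windows of 300 bases held at least 1 stretch and 6.64% held 2 or more, so a match is common and describes the letters alone. The files do not say where within a region the reads fell.

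The libraries were even in depth. In units of 1000000 reads, they held 22.6 to 24.0 mapped and 25.2 to 25.3 total reads, and 3 reads, the upper limit behind a count of 0, came to 0.125 to 0.133 reads per 1000000 mapped reads (RPM). Pairs of replicates of 1 host all differed beyond sampling noise over the read classes (smallest chi-square 1026 over 15 pairs), so none was taken as a library deposited more than once. Counting intervals below are exact 95% intervals and, with no molecular identifiers in these reads, speak to counting error alone. More RNA per cell and more cells that hold it cannot be told apart in whole flowers.

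Small RNAs over AG were few in Col and kan1-11 and abundant in suvh1-2, hdp1-1 and hdp2-1. Both AG regions were raised in all 3 of these mutants, and suvh1-2 stood above both hdp mutants. In Col, AGe was covered by 28, 24 and 21 reads, or 1.17, 1.01 and 0.890 RPM. AGp in Col was covered by 17, 9 and 8 reads, or 0.713, 0.380 and 0.339 RPM. These few reads make the Col level imprecise, and the counting interval of its lowest AGp library ran from 0.146 to 0.668 RPM. Every ratio to Col below rests on 73 AGe and 34 AGp reads in all.

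In suvh1-2 AGe was covered by 4972, 4981 and 5071 reads, or 211, 208 and 216 RPM. AGp was covered by 3474, 3116 and 3370 reads, or 148, 130 and 143 RPM. All suvh1-2 libraries stood above every library of the other 4 hosts in both regions. Against Col the mean ratio was 206 for AGe and 294 for AGp. The fitted log2 differences were 7.69 ± 0.41 (SE) for AGe and 8.20 ± 0.45 for AGp (edgeR quasi-likelihood test, adjusted p = 4.05e-19 and 3.15e-19). The 95% intervals of the ratios were wide, 116 to 366 for AGe and 157 to 550 for AGp. They carry the replicate spread shared by all set C groups as well as the low Col counts. Against hdp1-1, which held far more reads than Col, the SE of suvh1-2 was still 0.38 for AGe and 0.38 for AGp.

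In hdp1-1 AGe was covered by 1476, 840 and 794 reads, or 64.4, 37.2 and 34.6 RPM. AGp was covered by 920, 535 and 535 reads, or 40.1, 23.7 and 23.3 RPM. Replicate 1 was the highest in both regions, and all 3 libraries stood above Col. The ratio of means to Col was 44.2 for AGe (95% interval of the fit 24.9 to 78.5) and 60.8 for AGp (32.4 to 114). Both rises passed the test (log2 5.47 and 5.93, edgeR adjusted p = 1.87e-15 and 9.31e-16).

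In hdp2-1 AGe was covered by 336, 1581 and 1555 reads, or 14.0, 69.7 and 67.3 RPM. AGp was covered by 209, 992 and 828 reads, or 8.70, 43.7 and 35.8 RPM. Replicate 1 stood far below the other two in both regions, yet above every Col and kan1-11 library. The ratio of means to Col was 49.0 for AGe (27.6 to 87.0) and 61.6 for AGp (32.8 to 115). Both rises passed (log2 5.62 and 5.94, edgeR adjusted p = 1.06e-15 and 9.31e-16). Without replicate 1, the lowest, the log2 differences were larger, at 6.06 and 6.38. Without replicate 2, the highest, they were 5.31 and 5.54 and still passed.

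In kan1-11 AGe was covered by 37, 21 and 13 reads, or 1.59, 0.905 and 0.568 RPM. AGp was covered by 14, 9 and 12 reads, or 0.602, 0.388 and 0.524 RPM. The libraries overlapped those of Col in both regions. The ratio to Col was 0.995 for AGe and 1.06 for AGp, and neither difference passed (log2 -0.01 and 0.08, edgeR adjusted p = 0.989 for both). The 95% intervals of these ratios reached from 0.535 to 1.86 for AGe and from 0.516 to 2.16 for AGp, so smaller differences than these were not detectable at this depth. Of the 8 tests against Col 6 passed (75.0%), and the others were AGe and AGp of kan1-11. The size of the rises depended on the scale: by limma on log2(RPM + 1) the AGe ratio to Col was 105 in suvh1-2, 22.1 in hdp1-1 and 20.6 in hdp2-1. Col libraries of set B held a mean of 10.4 RPM of AGe, and levels were not compared between the sets.

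**Figure D2:**
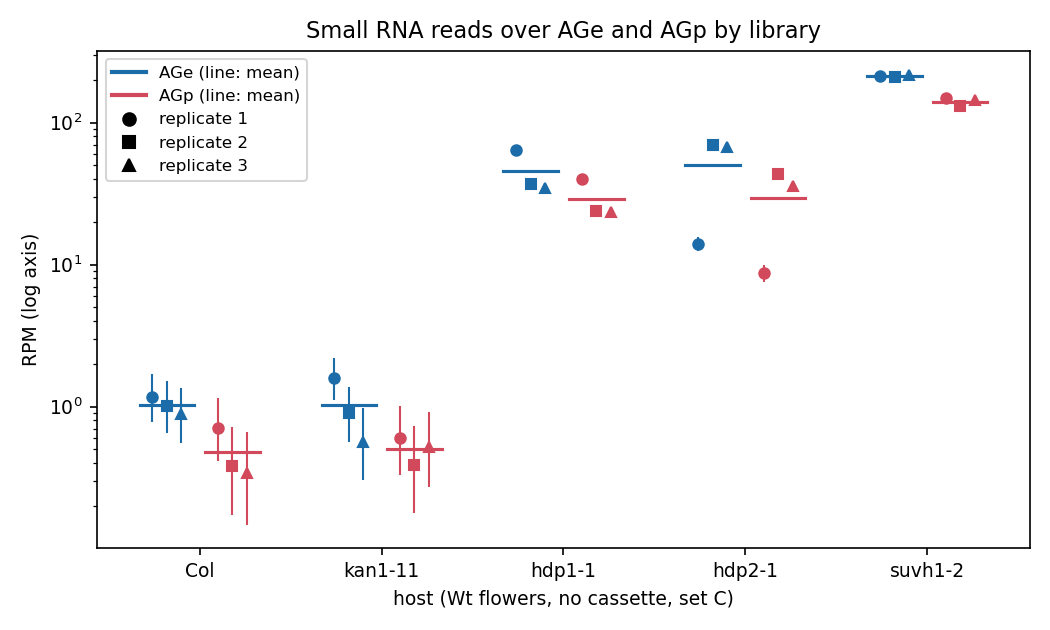
RPM (log axis) over AGe and AGp in each library of the 5 hosts, with exact 95% counting intervals as vertical lines and group means as horizontal lines. The suvh1-2 libraries sit between 208 and 216 RPM of AGe, the hdp1-1 and hdp2-1 libraries between 14.0 and 69.7, and the Col and kan1-11 libraries between 0.568 and 1.59.

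The mutants were also compared with each other. suvh1-2 held 4.66 times the AGe level of hdp1-1 and 4.21 times that of hdp2-1 (log2 2.22 and 2.07, edgeR adjusted p = 1.07e-06 and 3.26e-06). For AGp the ratios were 4.83 and 4.77 (log2 2.27 and 2.26, edgeR adjusted p = 9.28e-07 and 9.42e-07). The lowest suvh1-2 library, at 208 RPM of AGe, was well above the highest hdp library, at 69.7 RPM. These p-values depend on the spread shared by all set C groups. Fitted with only the 2 groups compared, suvh1-2 against hdp2-1 had an edgeR adjusted p of 0.0211 for AGe and 0.0163 for AGp.

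hdp1-1 and hdp2-1, mutants of proteins known to act in one complex, overlapped in both regions. The hdp1-1 to hdp2-1 ratio was 0.902 for AGe (95% interval 0.534 to 1.52) and 0.987 for AGp (0.584 to 1.67), and neither passed (edgeR adjusted p = 0.757 and 0.961). The AGe comparison turned on 1 library. Without replicate 1 of hdp2-1 the AGe ratio was 0.663, which passed (log2 -0.59, edgeR adjusted p = 0.0144), while AGp at 0.730 did not (edgeR adjusted p = 0.137). Over all alternatives the AGe adjusted p ran from 0.0144 to 0.975.

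kan1-11 stood below the other 3 mutants. The ratio to kan1-11 was 207 for AGe and 278 for AGp in suvh1-2, 44.4 and 57.5 in hdp1-1, and 49.3 and 58.3 in hdp2-1, and all 6 tests passed (edgeR, largest adjusted p = 2.81e-15). Of the 12 tests between mutants 10 passed (83.3%). The tests against Col and those against kan1-11 share the high libraries and are not separate evidence of their levels.

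**Figure D3:**
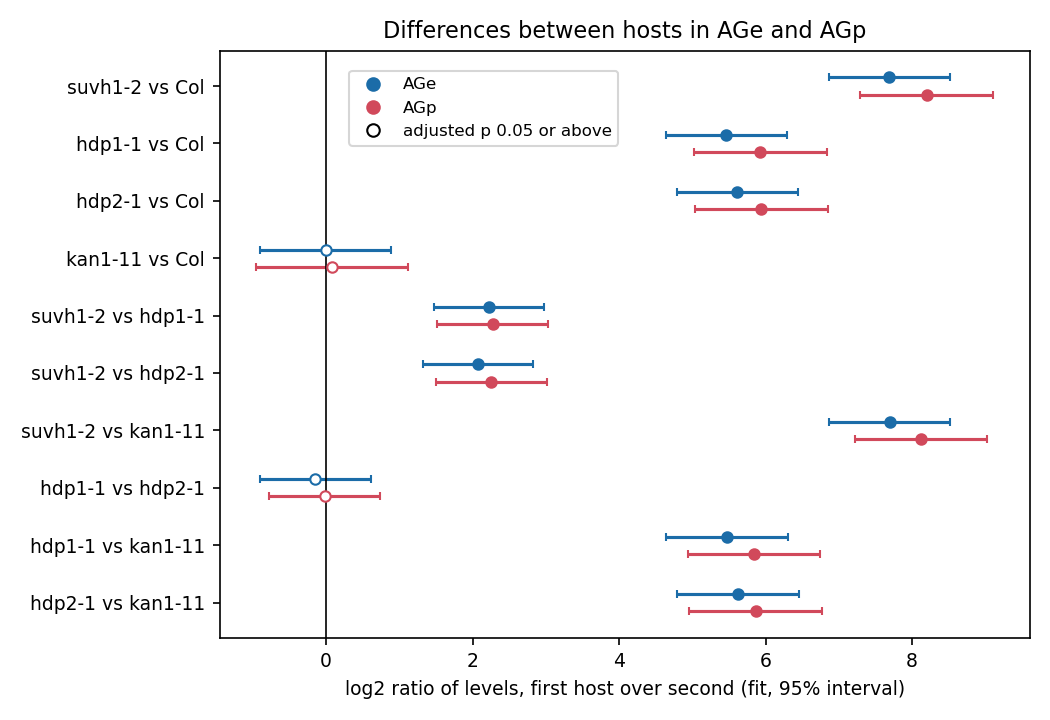
Fitted log2 ratio of the first host over the second, with 95% intervals, for AGe and AGp in the 10 pairs of hosts, open symbols marking an edgeR adjusted p of 0.05 or above. The open symbols are kan1-11 against Col and hdp1-1 against hdp2-1, and the remaining 16 values are 2.07 log2 units or more.

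The balance of both regions was read as AGp reads per AGe read, a ratio within a library that does not depend on library size. It was 0.699, 0.626 and 0.665 in suvh1-2, 0.623, 0.637 and 0.674 in hdp1-1, and 0.622, 0.627 and 0.532 in hdp2-1. The length of AGp is 0.700 of that of AGe, so these libraries lay close to equal coverage per base. Per kilobase, suvh1-2 held 70.6 RPM over AGe and 66.9 over AGp, hdp1-1 15.1 and 13.8, and hdp2-1 16.8 and 14.0. Promoter coverage per base was thus similar to that of the enhancer but somewhat lower, at a mean of 0.947 of it in suvh1-2, 0.921 in hdp1-1 and 0.848 in hdp2-1.

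In Col the ratio was 0.607, 0.375 and 0.381, and in kan1-11 0.378, 0.429 and 0.923. These values come from 13 to 37 AGe reads each, and the exact 95% interval of the highest, kan1-11 replicate 3, ran from 0.385 to 2.19. All 3 suvh1-2 and all 3 hdp1-1 libraries stood above Col, but Col replicate 1 reached 0.607 and its interval, 0.312 to 1.15, covers all of them. Pooled over libraries the ratio was 0.663 in suvh1-2, 0.640 in hdp1-1, 0.584 in hdp2-1, 0.493 in kan1-11 and 0.466 in Col.

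No pair of hosts passed the test of this ratio. Of 10 pairs 0 (0.0%) passed after adjustment (edgeR, region-by-host term with the library as a block), 0 had an unadjusted p under 0.05, and 0 passed by the exact permutation test, which cannot give less than 0.1 with 3 against 3 libraries. The smallest unadjusted p was that of suvh1-2 against hdp2-1 (log2 0.18, edgeR adjusted p = 0.383), whose 95% interval in log2 units ended at 0.35 and just reached 0. hdp2-1 replicate 3, at 0.532, lay below every suvh1-2 and hdp1-1 library. Against Col the log2 difference was 0.51 in suvh1-2 (-0.18 to 1.19), 0.47 in hdp1-1 (-0.23 to 1.16), 0.33 in hdp2-1 (-0.36 to 1.03) and 0.09 in kan1-11 (-0.87 to 1.04). Between suvh1-2 and hdp1-1 it was 0.04 (-0.13 to 0.22), which bounds the difference more closely than any comparison with Col.

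**Figure D4:**
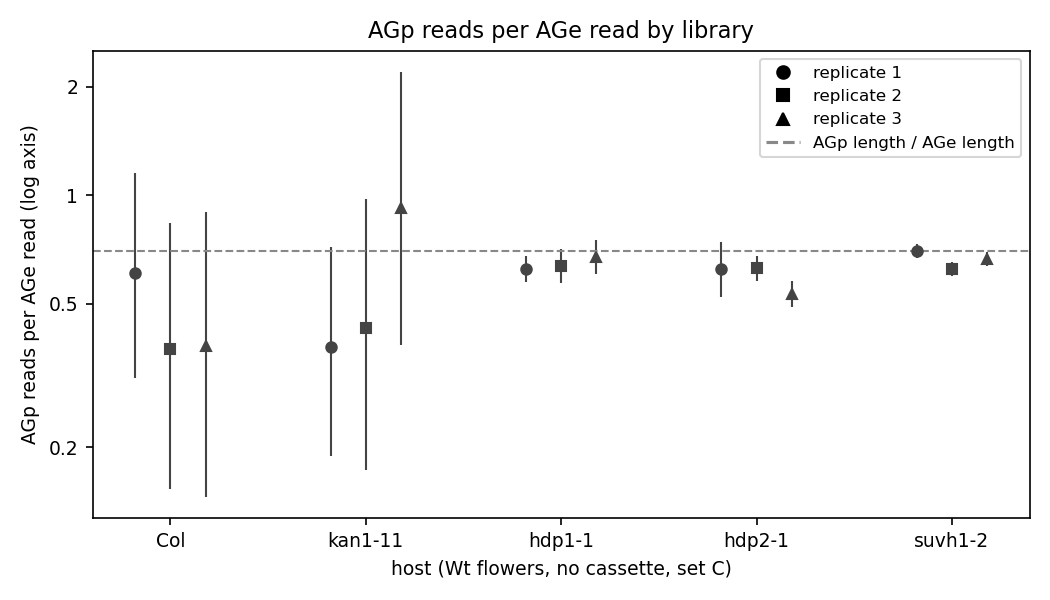
AGp reads per AGe read (log axis) in each library of the 5 hosts, with exact 95% intervals as vertical lines and the ratio of the region lengths, 0.700, as a dashed line. The suvh1-2, hdp1-1 and hdp2-1 libraries lie between 0.532 and 0.699 with short intervals, while Col and kan1-11 range from 0.375 to 0.923 with long ones.

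Replicates spread differently among the hosts. The coefficient of variation of AGe was 1.82% in suvh1-2, 13.9% in Col, 36.3% in hdp1-1, 51.1% in kan1-11 and 62.6% in hdp2-1. For AGp it was 6.47% in suvh1-2, 21.5% in kan1-11, 33.1% in hdp1-1, 42.9% in Col and 62.4% in hdp2-1. With 3 libraries a host, 1 library set several of these values. Without replicate 1 the coefficient fell to 2.46% for AGe and 14.0% for AGp in hdp2-1, and to 5.16% and 1.18% in hdp1-1. For AGp it fell to 8.10% in Col without replicate 1, to 9.77% in kan1-11 without replicate 2 and to 2.04% in suvh1-2 without replicate 2. No order of the hosts by spread is read from these values.

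Counting error alone was set beside this spread. In Col the variance between replicates was 0.469 times the counting variance for AGe and 2.09 times for AGp, and in kan1-11 it was 6.14 and 0.543 times. In hdp1-1 it was 137 and 72.5 times, and in hdp2-1 471 and 273 times. In suvh1-2 it was 1.66 and 14.0 times. The excess over counting error in both hdp mutants came mostly from replicate 1: without it the variance was 0.947 times the counting variance for AGe and 17.9 times for AGp in hdp2-1, and 2.17 and 0.0740 times in hdp1-1.

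Replicate 1 of each hdp mutant stood apart in the same direction in both regions. In hdp2-1 the highest library held 4.98 times the AGe and 5.02 times the AGp of the lowest, while AGp per AGe differed by 1.18 times. In hdp1-1 these values were 1.86, 1.72 and 1.08. The coefficient of variation of AGp per AGe was 4.05% in hdp1-1, 5.52% in suvh1-2 and 8.98% in hdp2-1, against 29.1% in Col and 52.2% in kan1-11, where the counts were low.

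Per mapped read, a larger share aligned to the genome more than once in every mutant library than in Col, but per total read this separation held only for suvh1-2 and hdp2-1. The share was 49.3%, 48.2% and 49.1% in Col and 51.0%, 50.4% and 50.5% in suvh1-2. In kan1-11 it was 51.0%, 50.5% and 53.7%, and in hdp1-1 54.0%, 50.3% and 51.7%. In hdp2-1 it was 54.0%, 54.9% and 55.8%. No mutant library overlapped Col on this scale. hdp2-1 stood above all other hosts, but its lowest library and the highest of hdp1-1 were equal to the first decimal.

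The mean share was 48.9% ± 0.556 (SD, n = 3) in Col, and the mutants stood 1.75 percentage points above it in suvh1-2, 2.85 in kan1-11, 3.11 in hdp1-1 and 6.03 in hdp2-1. Each of these differences had an exact two-sided permutation p of 0.1, the smallest that 3 against 3 libraries allow, and 0.143 adjusted over the 10 pairs. The differences exceeded the SD of the replicates, which was largest in hdp1-1 (1.87) and kan1-11 (1.73), but could not pass a threshold of 0.05 in this design. Replicates of hdp1-1 ran from 50.3% to 54.0% and those of kan1-11 from 50.5% to 53.7%, ranges wider than their differences from Col. Among mutant pairs, suvh1-2, hdp1-1 and kan1-11 overlapped with each other, and hdp2-1 overlapped with none of them.

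The share depended on its denominator. The mean share of total reads that mapped was 93.7% in Col and suvh1-2, 92.0% in hdp2-1, 91.3% in kan1-11 and 90.5% in hdp1-1. The hdp2-1 libraries held 94.8%, 89.7% and 91.5% and overlapped Col. Replicate 1 of hdp2-1, low in AG reads, had the highest mapped share of the 15 libraries, and a link between these was not tested. With the multiply aligned reads taken per total read, the difference from Col was 1.62 points in suvh1-2, 1.41 in kan1-11, 1.23 in hdp1-1 and 4.67 in hdp2-1. suvh1-2, lowest of the mutants per mapped read, was then second to hdp2-1. The differences of suvh1-2 from hdp1-1 and kan1-11 turned from -1.36 to 0.39 and from -1.11 to 0.22 points.

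Per total read the libraries of hdp1-1 and kan1-11 overlapped those of Col. Replicate 2 of hdp1-1 stood at 45.0%, below every Col library (45.2% to 46.5%), and replicate 2 of kan1-11 at 46.4%, below the highest of Col. The kan1-11 difference per mapped read, 2.85 points, was 1.87 without replicate 3. The part of these shares in the AG levels was not tested. Taken per read aligned once, the AGe ratio to Col was 214 in suvh1-2, 47.5 in hdp1-1 and 56.0 in hdp2-1.

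**Figure D5:**
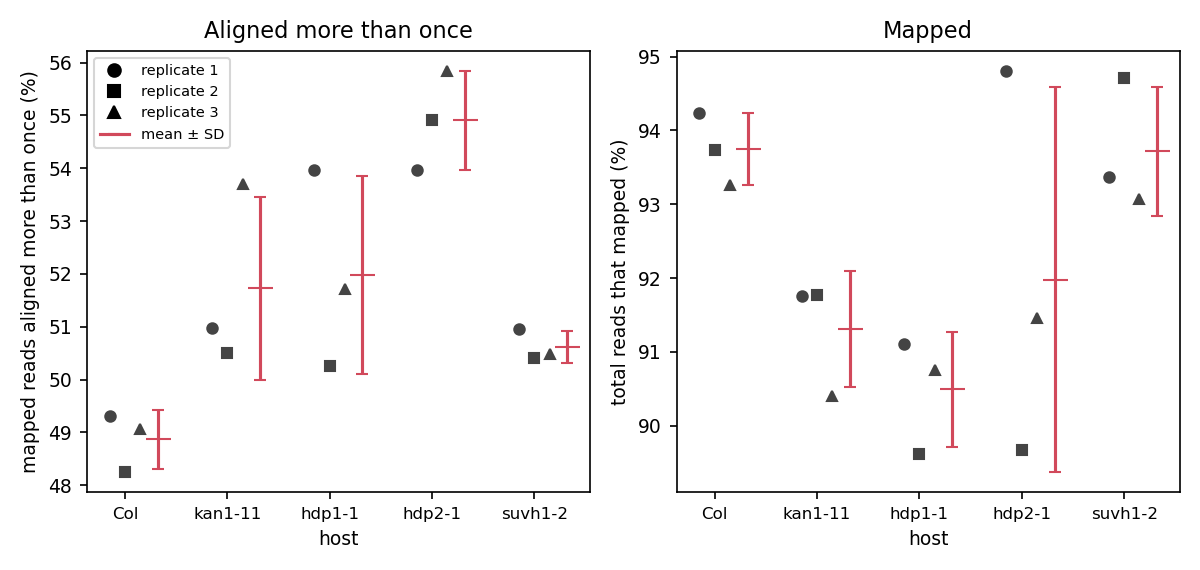
Percent of mapped reads aligned more than once (left) and percent of total reads that mapped (right) in each library, with mean ± SD over 3 libraries beside them; neither axis starts at 0. Col lies between 48.2% and 49.3% on the left and every mutant library at 50.3% or above.

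In set C, suvh1-2, hdp1-1 and hdp2-1 were also sequenced with the ARE//AGe cassette. In means of RPM, AGe in the host was 7.01% of that in suvh1-2 ARE//AGe flowers of class sMf, 2.14% and 5.92% of that in sMf and rMf flowers of hdp1-1, and 1.48% and 2.33% in hdp2-1. In Col and kan1-11 with the Ctr//AGe cassette, the mean level was 1194 and 1187 RPM over AGe but 3.27 and 3.04 over AGp. The Col and kan1-11 hosts, with 0.454 and 0.577 AGp reads per AGe read, had a more even balance than these lines. In the other mutants, host and ARE//AGe line were closer, but the cassette differed too, so host and cassette cannot be told apart. The ratio was 0.663 in the suvh1-2 host and 0.602 in its sMf line. It was 0.645 in the hdp1-1 host against 0.611 (sMf) and 0.556 (rMf), and 0.594 in the hdp2-1 host against 0.567 (sMf) and 0.417 (rMf).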

How the data were processed

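Small RNA libraries of young flowers were made with the Illumina TruSeq small RNA kit (sets B and C), per the labels' protocols. The submitters' processing notes name Bowtie, HTSeq 0.13.5 and the TAIR10 genome. How reads were trimmed, size-selected and, when multiply aligned, counted is not given in the sources used here. Per the file headers, the deposited table gives read counts per library (total, aligned once, aligned more than once, mapped, AGe and AGp), an alignment rate in percent, and RPM per region. The table holds no size classes, strands or other loci. Endogenous and transgene copies have the same sequence, but these hosts have no named cassette.

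Counts were tested with edgeR 4.0.16 (quasi-likelihood F test, two-sided, R 4.3.3). The levels used mapped reads as library size and a common dispersion over all 36 set C libraries. Their 48 degrees of freedom pool both regions. AGp per AGe read was fitted on the 15 host libraries alone, with its own dispersion and 10 degrees of freedom. Adjusted p are Benjamini-Hochberg values over 8 tests against Col, 12 between mutants and 10 for AGp per AGe read, with 0.05 as threshold. Printed ratios are those of mean RPM, and log2 differences and intervals come from the fit. Read shares were compared by exact permutation tests (numpy 2.4.6), and exact counting intervals were computed with scipy 1.17.1. The p-values of the levels rest on 1 estimate of spread over all set C groups, although replicates spread unequally among the hosts. For the levels, the exact permutation p of every passed test was 0.1, the smallest that 3 against 3 libraries allow. With only 2 regions, TMM and DESeq2's own size factors have no meaning, so other library sizes were tried instead, beside DESeq2 1.42.0, limma 3.58.1, a filter on regions under 10 reads, smaller sample sets, a replicate block and leaving out each library. Both regions were named in every comparison. The fits were tested on data simulated with the same dispersion in every group, so the unequal spread of the hosts was not covered. The hosts, the regions and the comparisons were chosen with earlier results of these data known.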

Additional observations from a re-analysis of the deposited data

How the results depend on the processing

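The counts of passed tests, 6 of 8 against Col and 10 of 12 between mutants, were the same with total reads or reads aligned once as library size, with DESeq2, with limma, with fewer libraries in the fit and with the degrees of freedom of 1 region (an alternative chosen after seeing the data). No region fell under the filter of 10 reads. Leaving out 1 library at a time gave 6 against Col in every case and 10 to 11 between mutants. The 11th was AGe in hdp1-1 against hdp2-1, whose log2 difference ran from -0.59 to 0.16 and passed without replicate 1 of hdp2-1 (-0.59). By limma on log2(RPM + 1) the ratios to Col fell by more than 1.5 times, to 105 and 96.2 for AGe and AGp in suvh1-2, 22.1 and 19.8 in hdp1-1 and 20.6 and 17.2 in hdp2-1, since the pseudocount of 1 is near the Col level. AGp per AGe read passed in 0 of 10 pairs under every alternative. Taken per total read, the difference in the share of multiply aligned reads was 1.23 points in hdp1-1 against Col, 1.41 in kan1-11 against Col, 4.67 in hdp2-1 against Col and -3.05 in suvh1-2 against hdp2-1, and it changed sign in suvh1-2 against hdp1-1 (0.39) and kan1-11 (0.22). Leaving out 1 library at a time, also chosen after seeing the data, moved the coefficient of variation of AGe between 5.16% and 42.6% in hdp1-1 and between 2.46% and 94.1% in hdp2-1. That of AGp ran from 8.10% to 50.3% in Col, 9.77% to 30.6% in kan1-11, 2.04% to 8.86% in suvh1-2, 1.18% to 37.5% in hdp1-1 and 14.0% to 94.5% in hdp2-1.

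With the replicate block the log2 differences from Col were 7.69 and 8.20 in suvh1-2, 5.47 and 5.93 in hdp1-1, 5.62 and 5.91 in hdp2-1 and -0.01 and 0.08 in kan1-11 for AGe and AGp, and 6 of 8, 10 of 12 and 0 of 10 tests passed. Over the 10 pairs of hosts the correlation of same-numbered deviations ran from -0.991 to 0.856 and exceeded 0.1 in 6. Those 6 ran from 0.252 upward, and every negative value was with hdp2-1. With 3 libraries a host, these values cannot decide whether the replicate numbers pair the libraries. Depth, together with the shared estimate of spread, limits what can be said of Col and kan1-11 and of every ratio to them. Their regions hold 8 to 37 reads per library.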
